A study of Homo sapiens with 50 samples.

Results

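Cholesterol is built from squalene by a chain of enzymes of the endoplasmic reticulum, and 10 genes of that chain were followed here through 50 arrays of A549 cells, an established human lung adenocarcinoma line. In pathway order they are SQLE, LSS, CYP51A1, TM7SF2, MSMO1, NSDHL, HSD17B7, EBP, SC5D and DHCR7. They were chosen by their place in the pathway, and each was read from the probe set naming it that had the highest mean over all arrays. They make up 10 of the 18239 genes tested, no filter on dim signals was applied, and all 10 entered every test.

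The series asks what compound 16, an activator of the glycolytic enzyme pyruvate kinase PKM, does to cells that have or lack serine in their medium. Cells grown in RPMI were moved to BME medium with non-essential amino acids, either with serine or without it, 24 h before treatment. They then received 1 uM compound 16 or DMSO, the solvent, and RNA was taken at 0, 1.5, 6 and 24 h after the addition. These 16 groups hold 3 arrays each, or 2 in the case of DMSO in serine medium at 1.5 h, and the 17th group is 3 arrays of cells in full medium before the change. The 0 h arrays labelled compound 16 and DMSO thus differ by an addition made at the moment of harvest. No genotype differs between groups, all cells being the same line.

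Squalene epoxidase, SQLE, adds oxygen to squalene and is a slow, controlled step, and lanosterol synthase, LSS, folds the product into the first sterol, lanosterol. CYP51A1 then removes a methyl group from the sterol core and TM7SF2 reduces the double bond that this leaves, MSMO1, NSDHL and HSD17B7 take off a further pair of methyl groups, and EBP, SC5D and DHCR7 move, add and remove double bonds until cholesterol is made. The genes are textbook targets of the transcription factor SREBP-2 (gene SREBF2), which the escort protein SCAP brings to the Golgi when membrane sterol is low and which INSIG proteins hold back when sterol is plentiful. SREBP-2 acts at promoters together with the CCAAT-binding factor NF-Y and with SP1, which binds GGGCGG.

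Because these genes are known as a jointly controlled set, the promoter letters of 4 of them are shown, each being the 250 bases before the RefSeq transcription start on GRCh38.p14, read 5′ to 3′ on the gene's strand. Capitals mark CCAAT or its reverse complement ATTGG. MSMO1 (chr4:165327419-165327668, plus strand) and NSDHL (chrX:152830813-152831062, plus strand) hold the most matches, DHCR7 (chr11:71448394-71448643, minus strand, the first of its 2 listed starts) is the gene with the widest range of signal, and CYP51A1 (chr7:92134478-92134727, minus strand) is the gene whose chosen probe set followed the others least. The second probe set of CYP51A1 followed them closely, as described further on. Any link between motifs and signal was not tested.
MSMO1: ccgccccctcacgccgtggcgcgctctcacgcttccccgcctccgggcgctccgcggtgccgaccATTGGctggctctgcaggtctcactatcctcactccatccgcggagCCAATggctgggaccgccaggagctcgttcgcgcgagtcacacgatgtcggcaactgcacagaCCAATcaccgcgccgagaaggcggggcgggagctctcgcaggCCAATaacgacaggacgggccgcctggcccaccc
NSDHL: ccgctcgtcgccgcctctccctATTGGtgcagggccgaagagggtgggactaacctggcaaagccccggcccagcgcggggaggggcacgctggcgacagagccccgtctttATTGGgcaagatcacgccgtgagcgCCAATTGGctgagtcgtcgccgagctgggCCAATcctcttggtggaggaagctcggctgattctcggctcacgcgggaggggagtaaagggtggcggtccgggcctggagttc
DHCR7: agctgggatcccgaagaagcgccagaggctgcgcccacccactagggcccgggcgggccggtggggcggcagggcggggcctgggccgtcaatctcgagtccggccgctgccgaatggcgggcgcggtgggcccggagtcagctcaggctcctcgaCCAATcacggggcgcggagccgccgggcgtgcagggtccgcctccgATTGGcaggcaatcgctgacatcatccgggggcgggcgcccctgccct
CYP51A1: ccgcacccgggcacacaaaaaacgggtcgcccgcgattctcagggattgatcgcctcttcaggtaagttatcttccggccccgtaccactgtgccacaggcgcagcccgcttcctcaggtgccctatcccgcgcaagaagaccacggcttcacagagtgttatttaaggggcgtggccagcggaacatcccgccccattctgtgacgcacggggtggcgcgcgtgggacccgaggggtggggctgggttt

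CCAAT on either strand was found in 8 of the 9 enzymes with a listed promoter, against 37% of all 27305 genes with promoters of that length, a gene counting where any of its starts held the letters. NSDHL had 5 matches, of which 2 overlap as 1 palindromic stretch, MSMO1 had 4 and EBP 3. DHCR7 had 2 at its first start and 0 at its second, and LSS, TM7SF2, HSD17B7 and SC5D had 1 per start. CYP51A1 had none in this window. GGGCGG was found in 8 of 9, all but NSDHL, against 46.2% of genes. Of the E-box CACGTG there was 1 match, in SC5D, against 7.73% of genes. The sterol element letters TCACNCCAC and TCACCCCA, which can overlap each other, were in 0 of 9, against 1.09% and 1.59% of genes. All motifs were searched on both strands, and SQLE was not analysed here for its promoter.

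The arrays looked alike in general quality. Array medians lay between 5.40 and 5.54 log2 units, and no 2 arrays held identical values. The group means of the ACTB 3′ minus 5′ signal lay between 1.01 and 1.37. The lowest was that of compound 16 with serine at 6 h, and the highest that of the cells before the medium change. Epithelial genes were bright, EPCAM at the 80.9th percentile and KRT18 at the 100.0th of probe set means, as were genes typical of A549 cells such as AKR1B10, at the 100.0th. The 11 measured markers of blood, stromal and endothelial cells lay between the 7.5th and the 47.0th percentile. Such bulk values cannot tell fewer transcripts per cell from a smaller share of cells that hold them. Nothing in the labels ties the arrays of a group to separate cultures, so p-values rest on a spread among arrays that could be technical. The numbers that end the sample titles form a block for each time and another for the cells before the medium change, and a shift between blocks cannot be told apart from time or medium. Values of a group are listed in the order of those numbers.

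**Figure D1:**
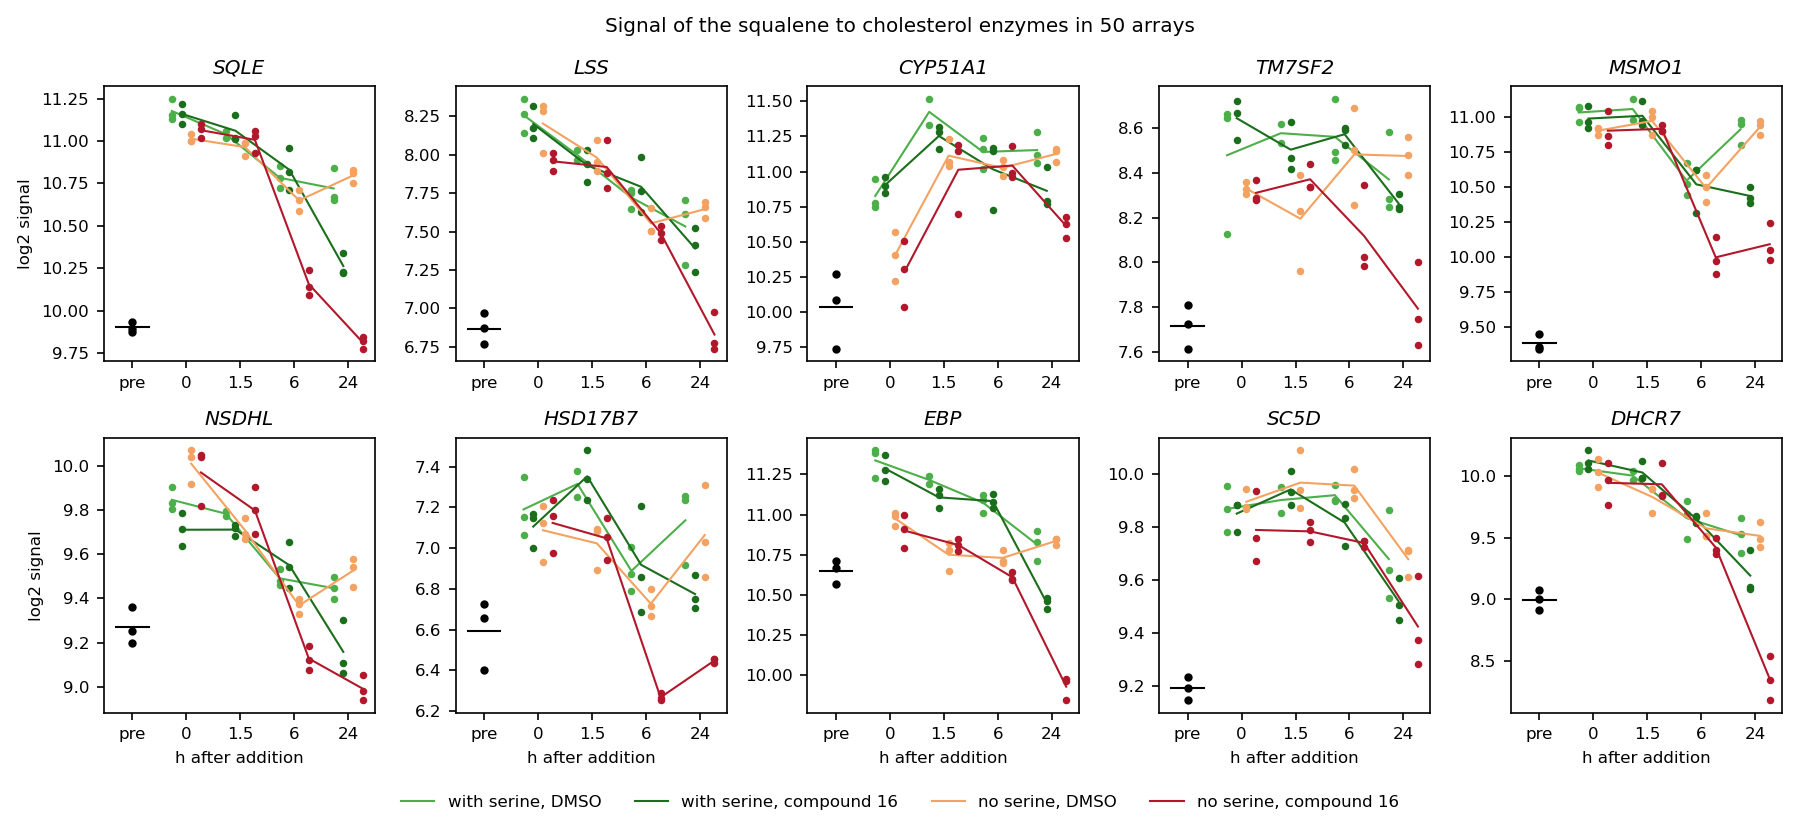
Log2 signal of each enzyme (vertical axis, own range in each panel) on all 50 arrays, by group before the medium change (pre) and by h after addition (horizontal axis, equally spaced and not to scale). Dots are arrays and lines join group means; in 5 panels the no-serine compound group at 24 h has the lowest mean of all 17 groups.

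The change of medium raised the signal of all 10 enzymes. With serine, at 0 h in DMSO, the cells had between 1.49-fold (NSDHL) and 3.13-fold (MSMO1) more signal than before the change, with a median difference of 0.78 log2 units. All 10 passed limma's test at an adjusted p under 0.05, where 12.3% of all genes passed as higher. For MSMO1, which starts the removal of the paired methyl groups, the arrays read 9.45, 9.36 and 9.34 before and 11.06, 11.07 and 10.96 after, a log2 difference of 1.65 ± 0.08 (SE, adjusted p = 2.13e-18). LSS went from 6.87, 6.97 and 6.77 to 8.27, 8.37 and 8.14 (1.39 ± 0.10, adjusted p = 1.11e-13). SQLE went from 9.88, 9.94 and 9.89 to 11.13, 11.15 and 11.25 (1.27 ± 0.06, adjusted p = 3.46e-19). In each of the 10 genes every array after the change was above every array before it, where 18.3% of all genes showed such a gap.

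Without serine the 10 enzymes were again all higher than before the change, by 0.33 (EBP) to 1.52 (MSMO1) log2 units and with a median of 0.72, while 16% of all genes were called higher. The same 3 arrays before the change serve both comparisons. The CYP51A1 arrays of this pair overlapped, at 10.09, 10.27 and 9.74 before and 10.22, 10.57 and 10.41 after. Its difference of 0.37 ± 0.13 (adjusted p = 0.0242) lost its call without the pre-change array numbered 3 (0.22) or without either of the 0 h arrays numbered 20 (0.28) and 21 (0.36). The other 9 enzymes showed no overlap, where 20.7% of all genes had such a gap.

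In DMSO alone the signal then fell back between 0 and 6 h. With serine 6 enzymes fell (SQLE, LSS, MSMO1, NSDHL, EBP and DHCR7), where 9.62% of all genes were called lower, and without serine the same 6 and HSD17B7 fell, where 14.3% were. The HSD17B7 call (-0.36, adjusted p = 0.0175) was lost under quantile normalization and centring, on the compared arrays alone and without the arrays numbered 20, 21 or 67. On the compared arrays alone EBP also lost its call in both media, and DHCR7 with serine. LSS without serine read 8.31, 8.01 and 8.29 at 0 h and 7.51, 7.66 and 7.50 at 6 h, a difference of -0.65 ± 0.10 (adjusted p = 9.27e-06). NSDHL, the dehydrogenase that follows MSMO1, read 9.92, 10.04 and 10.07 and then 9.33, 9.38 and 9.40 (-0.64 ± 0.07, adjusted p = 9.47e-09). Both genes had no overlap between times. TM7SF2 and SC5D did not pass in either medium, with differences between 0.05 and 0.15. The chosen probe set of CYP51A1 rose by 0.63 ± 0.13 (adjusted p = 3.09e-04) without serine, where 8.15% of all genes were called higher, and its second probe set did not, as described further on. With the mean of both sets the rise was 0.22 and did not pass.

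From 6 to 24 h in DMSO the enzymes no longer moved as a group. MSMO1 rose in both media, by 0.44 ± 0.08 without serine and 0.37 ± 0.08 with it, where 4.47% and 5.78% of all genes were called higher. SC5D, the desaturase near the end of the chain, fell in both, by 0.28 ± 0.08 and 0.24 ± 0.08, where 7.35% and 9.67% were called lower. Both calls were lost with the mean of its probe sets (-0.19 and -0.08). The call without serine was also lost without array 66 or the second 24 h array, and the call with serine with arrays centred on their medians and without the arrays numbered 60, 62, 97 or 98 (-0.17). HSD17B7 rose by 0.34 ± 0.11 without serine (adjusted p = 0.0433), a call lost without any of the 6 h arrays numbered 66, 67 and 68 or without the first or the second 24 h array. The count of 3 called enzymes without serine was 1 without array 66 or without the second 24 h array. EBP fell by 0.26 ± 0.06 with serine. Fitted on the arrays of the comparison alone, the counts were 1 without serine and 0 with it.

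Lack of serine by itself, in DMSO, lowered EBP at 0, 1.5 and 6 h. EBP, the isomerase that shifts a double bond of the sterol ring, read 11.23, 11.38 and 11.40 with serine and 11.01, 10.99 and 10.93 without at 0 h, a difference of -0.36 ± 0.06 (adjusted p = 1.67e-04). At 1.5 h it read 11.24 and 11.19 against 10.78, 10.82 and 10.65 (-0.46 ± 0.07, adjusted p = 3.43e-05), and at 6 h 11.09, 11.01 and 11.12 against 10.71, 10.70 and 10.78 (-0.34 ± 0.06, adjusted p = 3.33e-04). At all 3 times the arrays without serine lay below those with it. By 24 h the gap had closed, with 10.83, 10.90 and 10.71 against 10.85, 10.85 and 10.81 and a difference of 0.02 ± 0.06.

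EBP was 1 of 2 enzymes called lower at 0 h, where 2.91% of all genes were, and the only one at 1.5 h (0.927%) and at 6 h (1.43%). The second at 0 h was CYP51A1 (-0.43 ± 0.13, adjusted p = 0.0351), whose call was lost without any of the arrays numbered 13, 14, 15, 19 and 21. Its second, dimmer probe set differed by -0.11 ± 0.10, and with the mean of both sets the difference was -0.27 (adjusted p = 0.0507). Fitted on the arrays of each comparison alone, limma called 0 enzymes at each of these 3 times, EBP then having adjusted p values of 0.142 at 0 h, 0.172 at 1.5 h and 0.160 at 6 h. At 24 h, 0 enzymes were called and 0 had an unadjusted p under 0.05, where 0.159% of all genes were called in either direction and 7.82% had such a p, and the 10 differences lay between -0.07 and 0.11.

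Compound 16 left no called difference in the enzymes at the early times. In both media at 0 h and 1.5 h, and with serine at 6 h, limma called 0 of the 10, where it called 0% of all genes, or 0.0822% without serine at 1.5 h. At an unadjusted p under 0.05 there was 1 enzyme without serine at 0 h (LSS, -0.24 ± 0.10, 7.23% of all genes) and 1 without serine at 1.5 h (SC5D, -0.18 ± 0.08, 4.43%). With serine there were 0 at 0 h (5.64%), 1.5 h (3.37%) and 6 h (6.06%). With serine at 6 h the 10 differences lay between -0.12 (CYP51A1) and 0.07 (LSS).

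At 6 h without serine, compound 16 lowered the signal of SQLE, MSMO1, NSDHL and HSD17B7. SQLE read 10.14, 10.24 and 10.09 with compound 16 and 10.59, 10.71 and 10.65 with DMSO, a 1.41-fold lower signal (log2 difference -0.49 ± 0.06, adjusted p = 3.5e-07). MSMO1 read 9.87, 9.97 and 10.14 against 10.58, 10.39 and 10.50 (-0.50 ± 0.08, adjusted p = 1.09e-04). HSD17B7, the ketone reductase of the same step, read 6.29, 6.26 and 6.25 against 6.71, 6.67 and 6.80 (-0.46 ± 0.11, adjusted p = 0.0142). In all 3 genes every compound array lay below every DMSO array. NSDHL differed least of the 4, with 9.19, 9.12 and 9.08 against 9.33, 9.38 and 9.40 (-0.24 ± 0.07, adjusted p = 0.0404).

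These were 4 of 10 enzymes, where 1.23% of all genes were called lower, and the median of the 10 was -0.23 against -0.01 for all genes. Another 3 (EBP, SC5D and DHCR7) had no overlap between arrays without passing, and the 7 without overlap compare with 9.82% of all genes. LSS, with 7.49, 7.54 and 7.45 against 7.51, 7.66 and 7.50, and CYP51A1 overlapped and differed by -0.06 and 0.02. TM7SF2 differed by -0.36 ± 0.12 (adjusted p = 0.105). The NSDHL call was lost without any single array of the 6, and the count of 4 fell to 2 without the compound array numbered 64 or 65 or the DMSO array numbered 68. In each of those fits HSD17B7 lost its call as well. Fitted on these 6 arrays alone the count was also 2, MSMO1 and NSDHL losing their calls.

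By 24 h without serine all 10 enzymes were lower under compound 16. DHCR7, the reductase that makes cholesterol from its last precursor, read 8.34, 8.54 and 8.18 with compound 16 and 9.49, 9.43 and 9.62 with DMSO, a 2.24-fold lower signal (log2 difference -1.16 ± 0.10, adjusted p = 1.53e-11). SQLE read 9.84, 9.78 and 9.82 against 10.81, 10.75 and 10.83, 1.98-fold lower (-0.98 ± 0.06, adjusted p = 1.76e-15). EBP read 9.84, 9.98 and 9.97 against 10.85, 10.85 and 10.81 (-0.91 ± 0.06, adjusted p = 1.63e-14). In these 3 genes the groups lay apart with no overlap.

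MSMO1 read 10.24, 9.98 and 10.05 against 10.87, 10.97 and 10.94 (-0.84 ± 0.08, adjusted p = 8.01e-10), its compound arrays differing from those of 6 h by 0.09 ± 0.08, which did not pass, while its DMSO arrays had risen. LSS, which had not differed at 6 h, read 6.74, 6.98 and 6.78 against 7.59, 7.69 and 7.66 (-0.82 ± 0.10, adjusted p = 1.32e-07). TM7SF2, the reductase that acts after CYP51A1, read 7.63, 8.003 and 7.75 against 8.56, 8.39 and 8.48 (-0.68 ± 0.12, adjusted p = 9.15e-05). HSD17B7 read 6.46, 6.43 and 6.45 against 7.03, 7.31 and 6.86 (-0.62 ± 0.11), and its compound arrays spread less than its DMSO arrays. NSDHL read 8.94, 9.05 and 8.98 against 9.58, 9.45 and 9.54 (-0.53 ± 0.07).

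CYP51A1, the demethylase of lanosterol, read 10.63, 10.53 and 10.68 against 11.15, 11.16 and 11.07 (-0.51 ± 0.13, adjusted p = 6.06e-03). The smallest fall was that of SC5D, with 9.62, 9.38 and 9.28 against 9.71, 9.61 and 9.71 (-0.25 ± 0.08, adjusted p = 0.0322). SC5D was the only enzyme whose arrays overlapped, and its call was lost without the second or the third compound array, without the first or the third DMSO array, with arrays centred on their medians, with the mean of its probe sets and in a fit of the compared arrays alone. Altogether 10 of 10 enzymes fell, where 4.08% of all genes were called lower, with a median of -0.75 against 0.00 for all genes, and 9 of 10 had no overlap, where 11.6% of all genes had none.

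**Figure D2:**
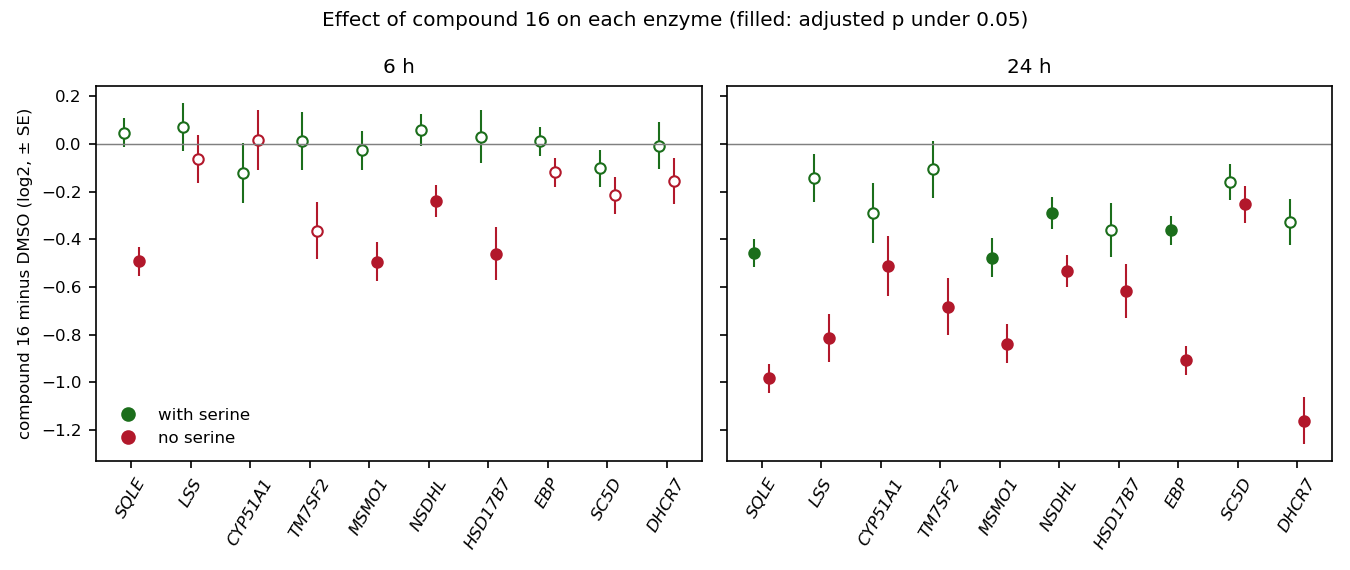
Log2 difference between compound 16 and DMSO for each enzyme in pathway order, at 6 h (left) and 24 h (right), with serine (green) and without (red). Points are limma estimates from 3 against 3 arrays, bars are ± SE and filled points passed at an adjusted p under 0.05: at 24 h without serine all 10 points are filled, from -0.25 for SC5D to -1.16 for DHCR7.

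With serine present, compound 16 lowered 4 enzymes at 24 h and by less. SQLE read 10.23, 10.34 and 10.22 with compound 16 and 10.67, 10.65 and 10.84 with DMSO, 1.37-fold lower (-0.46 ± 0.06, adjusted p = 2.63e-06). MSMO1 read 10.42, 10.38 and 10.50 against 10.98, 10.80 and 10.95 (-0.48 ± 0.08, adjusted p = 3.64e-04). EBP read 10.48, 10.46 and 10.41 against 10.83, 10.90 and 10.71 (-0.36 ± 0.06, adjusted p = 1.79e-04). The arrays of these 3 genes did not overlap. NSDHL passed with the smallest difference, -0.29 ± 0.07 (adjusted p = 0.0154), and lost its call without the arrays numbered 94, 95 or 97.

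Of all genes 0.62% were called lower in this comparison, and 7.84% had no overlap in that direction, as 6 of the enzymes did. The median of the 10 enzymes was -0.31 against 0.00. The other 6 all had a negative estimate that did not pass, from -0.11 (TM7SF2) to -0.36 (HSD17B7, adjusted p = 0.112), DHCR7 lying at -0.33 ± 0.10 (adjusted p = 0.0926). LSS, with 7.53, 7.24 and 7.41 against 7.71, 7.28 and 7.61, overlapped between the groups. Fitted on these 6 arrays alone, limma called 0 of the 10.

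The effect of compound 16 differed between media for part of the chain. At 24 h the effect without serine minus the effect with serine was -0.83 ± 0.14 for DHCR7 (adjusted p = 2.95e-04), -0.67 ± 0.14 for LSS (adjusted p = 6.28e-03), -0.54 ± 0.08 for EBP (adjusted p = 1.10e-04) and -0.53 ± 0.08 for SQLE (adjusted p = 1.74e-04). Those 4 of 10 compare with 0.899% of all genes called in that direction. The other 6 did not pass, with estimates from -0.10 (SC5D) to -0.58 (TM7SF2, adjusted p = 0.0959), which does not show that their effects were alike in both media, MSMO1 standing at -0.36 ± 0.12. With the mean of their probe sets CYP51A1 (-0.49, adjusted p = 0.0212) and TM7SF2 (-0.47, adjusted p = 0.0024) passed. Fitted on the 12 arrays of the comparison alone, 1 enzyme passed.

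At 6 h the difference passed for SQLE (-0.54 ± 0.08, adjusted p = 1.37e-04) and MSMO1 (-0.47 ± 0.12, adjusted p = 0.0351), where 0.274% of all genes passed as lower. The MSMO1 call was lost without any of the arrays numbered 57, 59, 60, 62, 63, 64, 66 and 68, and 0 enzymes passed in a fit of the 12 arrays alone. At 0 and 1.5 h 0 enzymes passed and 0 had an unadjusted p under 0.05, where 0% and 0.0164% of all genes passed and 5.87% and 4.25% had such a p. Within the compound groups, cells without serine were below those with serine in 7 enzymes at 6 h (5.54% of all genes lower), from -0.30 (LSS) to -0.67 (SQLE). At 24 h they were below in 6 (2.54%), from -0.34 (MSMO1) to -0.84 (DHCR7). Such differences also hold any gap already present in DMSO. For EBP at 6 h the gap was -0.47 under compound 16 and -0.34 in DMSO, and the difference between the effects, -0.13, did not pass. At 6 h the LSS call was lost under another prior, with array weights, on the compared arrays alone and without the arrays numbered 57, 58, 63, 64 or 65, and that of TM7SF2 on the compared arrays alone and without array 64. At 24 h that of TM7SF2 was lost without array 93, 99 or the third compound array without serine, and that of MSMO1 without the second. These comparisons share their compound arrays with the preceding ones, and the 24 h count was 1 on the arrays of the comparison alone.

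For 4 enzymes the effect without serine was stronger at 24 h than at 6 h. Without serine the effect at 24 h minus the effect at 6 h was -1.01 ± 0.14 for DHCR7 (adjusted p = 8.54e-06), -0.79 ± 0.08 for EBP (adjusted p = 7.63e-08), -0.75 ± 0.14 for LSS (adjusted p = 1.11e-03) and -0.49 ± 0.08 for SQLE (adjusted p = 3.38e-04), where 1.16% of all genes passed as lower. The other 6 had negative estimates that did not pass: CYP51A1 (-0.53 ± 0.18, adjusted p = 0.140), MSMO1 (-0.34 ± 0.12), TM7SF2 (-0.32 ± 0.17), NSDHL (-0.29 ± 0.10, adjusted p = 0.116), HSD17B7 (-0.16 ± 0.16) and SC5D (-0.04 ± 0.11). CYP51A1 passed with the mean of its probe sets (-0.64, adjusted p = 6.23e-04) and on the compared arrays alone (adjusted p = 0.0491). Whether enzymes differed from one another in timing was not tested. With serine SQLE (-0.50 ± 0.08, adjusted p = 5.04e-04) and EBP (-0.37 ± 0.08, adjusted p = 0.0241) passed, where 0.126% did, and the EBP call was lost without the arrays numbered 57, 61, 94, 95, 96 or 97. On the 12 arrays alone 0 passed with serine. These tests of timing were added after the data had been seen.

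In the compound groups alone, from 6 to 24 h, 6 enzymes fell without serine (SQLE, LSS, CYP51A1, EBP, SC5D and DHCR7), where 7.23% of all genes were called lower. The CYP51A1 call was lost without array 65, array 99 or the second 24 h array, and that of SC5D (-0.315) without the third 24 h array, on the compared arrays alone and with the mean of its probe sets (-0.18). DHCR7 fell the most, from 9.37, 9.40 and 9.49 to 8.34, 8.54 and 8.18 (-1.07 ± 0.10). With serine 6 fell as well (SQLE, LSS, NSDHL, EBP, SC5D and DHCR7), where 11.6% did. On the compared arrays alone LSS and SC5D lost their calls and TM7SF2 gained one, and SC5D also lost its call with the mean of its probe sets. EBP fell the most with serine, from 11.13, 11.04 and 11.08 to 10.48, 10.46 and 10.41 (-0.63 ± 0.06). For DHCR7 without serine and EBP with serine, no array of 24 h reached one of 6 h.

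The no-serine compound group at 24 h was also set against the cells before the medium change. SQLE (9.81 against 9.90 on average), LSS (6.83 against 6.87), TM7SF2 (7.79 against 7.72) and HSD17B7 (6.45 against 6.59) did not pass, with differences of -0.09, -0.04, 0.08 and -0.15. This does not show equal levels, and the SQLE arrays under compound 16 all lay below those before the change. The DMSO groups at 24 h were not set against the cells before the change. EBP (-0.72 ± 0.06), DHCR7 (-0.64 ± 0.10) and NSDHL (-0.28 ± 0.07) were lower than before the change, where 21% of all genes were called lower. MSMO1 (0.71 ± 0.08), CYP51A1 (0.58 ± 0.13) and SC5D (0.23 ± 0.08) were higher, where 16.5% were. Either count, 3 of 10, is not far from its share of all genes. The SC5D call was lost without array 99 (0.14), without the pre-change array numbered 2 and on the compared arrays alone. The second CYP51A1 set stood at -0.08 ± 0.10 in this comparison, and with the mean of its probe sets LSS passed at -0.32 (adjusted p = 8.32e-03). With serine and compound 16, 6 enzymes were still higher at 24 h (15.5% of all genes) and EBP was lower by 0.20 (20% of all genes), a call lost with arrays centred on their medians and on the compared arrays alone. These comparisons, also added after the data had been seen, span 2 blocks of title numbers.

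**Figure D3:**
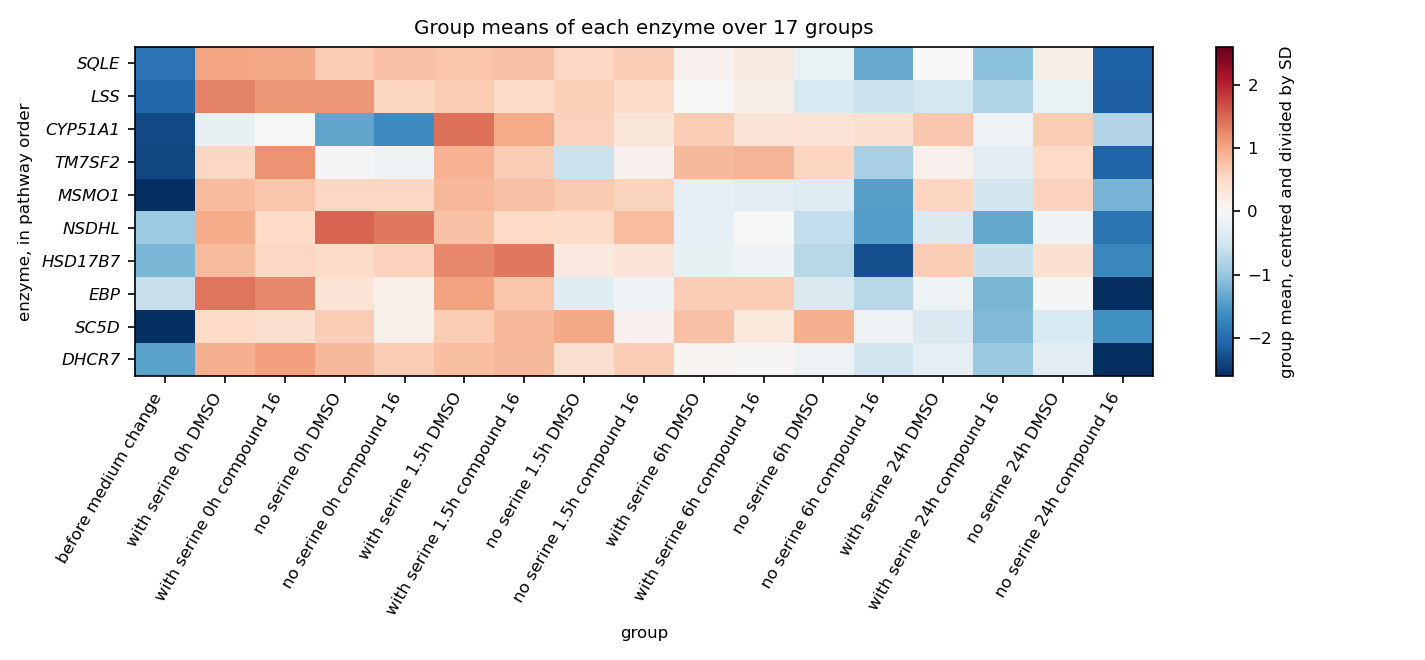
Mean log2 signal of each enzyme (rows, pathway order) in the 17 groups (columns), centred on the gene's mean over groups and divided by its SD, in SD units. The bluest columns are the no-serine compound group at 24 h (mean of the rows -1.89) and the cells before the medium change (-1.82). Next come the no-serine compound group at 6 h (-0.87) and the compound group with serine at 24 h (-0.79). CYP51A1 departs from the other rows at 0 h.

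Across the 17 groups each gene's range was between 1.71-fold (SC5D) and 3.42-fold (DHCR7). The no-serine compound group at 24 h was lowest for SQLE at 9.81 ± 0.03 (SD, n = 3), and likewise for LSS, NSDHL, EBP at 9.93 ± 0.07 and DHCR7 at 8.35 ± 0.18. The no-serine compound group at 6 h was lowest for HSD17B7 (6.27), and the cells before the medium change for CYP51A1, TM7SF2, MSMO1 and SC5D. The highest means lay at 0 h or 1.5 h for all 10, SQLE at 11.18 ± 0.06 and EBP at 11.34 ± 0.09 with serine and DMSO at 0 h. When the groups were ordered by level, between 13 and 16 of the 16 neighbouring pairs overlapped in their arrays. For SQLE the 3 pairs without overlap were those that set apart the lowest group, the cells before the change, and the pair of compound groups at 10.16 (no serine, 6 h) and 10.26 (with serine, 24 h).

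The group means of the enzymes followed one another to different degrees. Pearson's r between a gene and the mean of the other 9, over 17 groups that share arrays and a normalization, was 0.976 for SQLE, 0.932 for LSS, 0.926 for DHCR7 and 0.881 for MSMO1. TM7SF2, SC5D, EBP, HSD17B7 and NSDHL lay between 0.798 and 0.851, and CYP51A1 at 0.411. These values describe the groups and carry no test.

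CYP51A1 has 2 probe sets, and they disagreed. The brighter, chosen set went from a mean of 10.03 before the medium change to 10.83 at 0 h and 11.43 at 1.5 h with serine and DMSO. The dimmer set went from 7.58 to 8.52 and 8.77 in the same groups and was at 8.35 at 6 h, where the brighter was at 11.14. In DMSO without serine between 0 and 6 h the brighter differed by 0.63 and the dimmer by -0.18 ± 0.10. At 24 h without serine the effect of compound 16 was -0.91 ± 0.10 in the dimmer set (adjusted p = 5.57e-09 over all probe sets) and -0.51 in the brighter. The dimmer set's r with the mean of the other enzymes was 0.938.

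**Figure D4:**
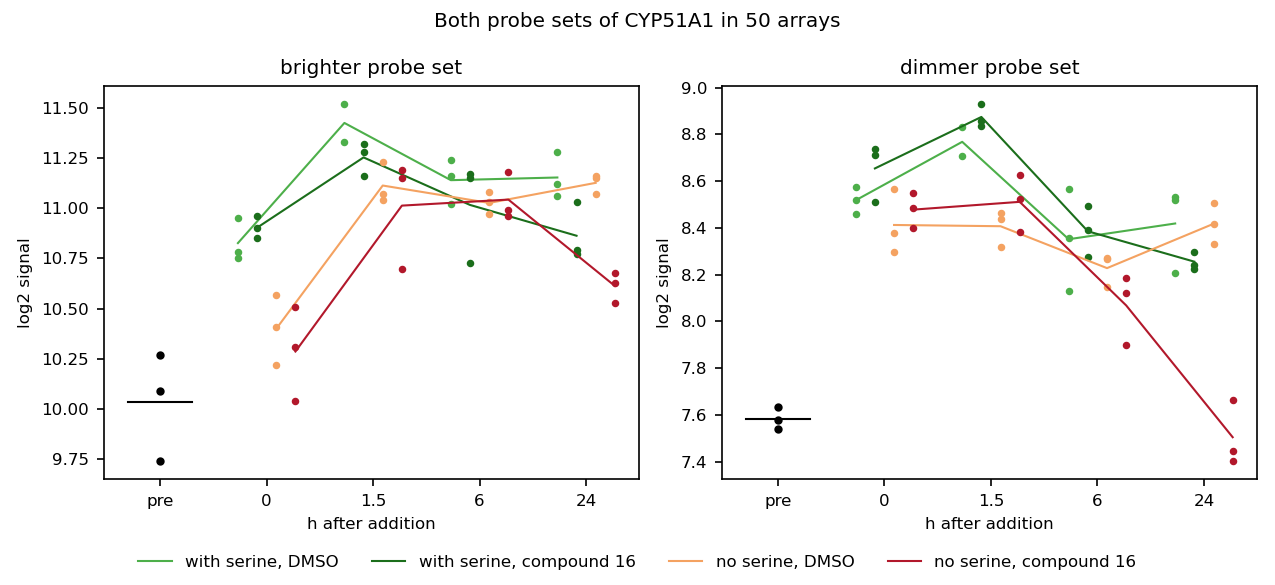
Log2 signal of the brighter (left) and dimmer (right) probe set of CYP51A1 on 50 arrays, by group before the medium change (pre) and h after addition (not to scale). Dots are arrays and lines join group means; the dimmer set is lowest in the no-serine compound group at 24 h (7.50) and the brighter before the medium change (10.03).

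Probe sets of the other genes mostly went the same way at 24 h without serine. The 4 sets of SQLE lay between -0.98 and -1.31, the 2 of EBP at -0.91 and -0.85, the 5 of TM7SF2 between -0.26 and -0.68 and the 3 of LSS between -0.50 and -1.23. MSMO1 had 3 sets between -0.84 and -1.08 and a dim one, of mean signal 4.16, at -0.02. SC5D was mixed, its 3 brighter sets at -0.25, -0.54 and -0.37 and its dimmest at 0.38 (adjusted p = 0.247 over all probe sets). The chosen sets of LSS, CYP51A1, TM7SF2, MSMO1, HSD17B7 and SC5D are of types that may also bind other transcripts. The HSD17B7 pseudogene HSD17B7P2 differed by -0.10 ± 0.19 there and at 6 h and was higher by 1.04 ± 0.19 after the medium change with serine. How much of the HSD17B7 signal it gives was not tested.

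Genes around the chain were counted from lists of the pathway. Of 7 measured enzymes upstream, from acetyl-CoA to farnesyl diphosphate, 6 fell under compound 16 at 24 h without serine (4.08% of all genes), with a median of -0.97: ACAT2 (-1.12 ± 0.06), which joins acetyl-CoA units, IDI1 (-1.09 ± 0.10), an isomerase of isoprene units, MVK (-0.98 ± 0.09), the mevalonate kinase, HMGCS1 (-0.97 ± 0.11), FDPS (-0.68 ± 0.06) and MVD (-0.63 ± 0.17). PMVK did not pass (-0.18 ± 0.11). Of the 3 other late genes, ERG28 (-0.58 ± 0.07), a scaffold of sterol enzymes, and LBR (-0.23 ± 0.07), a reductase with the same activity as TM7SF2, fell, and EBPL stood at 0.00. With serine 5 upstream enzymes, ERG28 (-0.31 ± 0.07) and none of the 2 other late genes fell (0.62% of all genes). The medium change with serine raised 6 of the 7 upstream enzymes (12.3% of all genes) and lowered PMVK (-0.42 ± 0.11, 9.46% of all genes).

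Among 13 measured genes of sterol sensing, uptake and export, 2 fell and 2 rose at 24 h without serine, where 4.08% of all genes were called lower and 2.97% higher. INSIG1, the sterol-controlled brake on SREBP-2, fell by 0.81 ± 0.08 and SREBF2 by 0.43 ± 0.10, and the exporters ABCG1 and ABCA1 rose by 0.80 ± 0.19 (adjusted p = 3.31e-03) and 0.42 ± 0.13 (adjusted p = 0.0389). At 6 h INSIG1 was the 1 gene of this list that passed, at -1.13 ± 0.08 (adjusted p = 1.90e-12), beside the 4 enzymes of the chain and HMGCS1, IDI1 and MVK upstream (1.23% of all genes). With serine at 24 h it was again INSIG1 alone (-0.49 ± 0.08). SREBF1, SCAP and INSIG2 did not pass in these 3 comparisons. A further 6 listed genes were not analysed here.

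**Figure D5:**
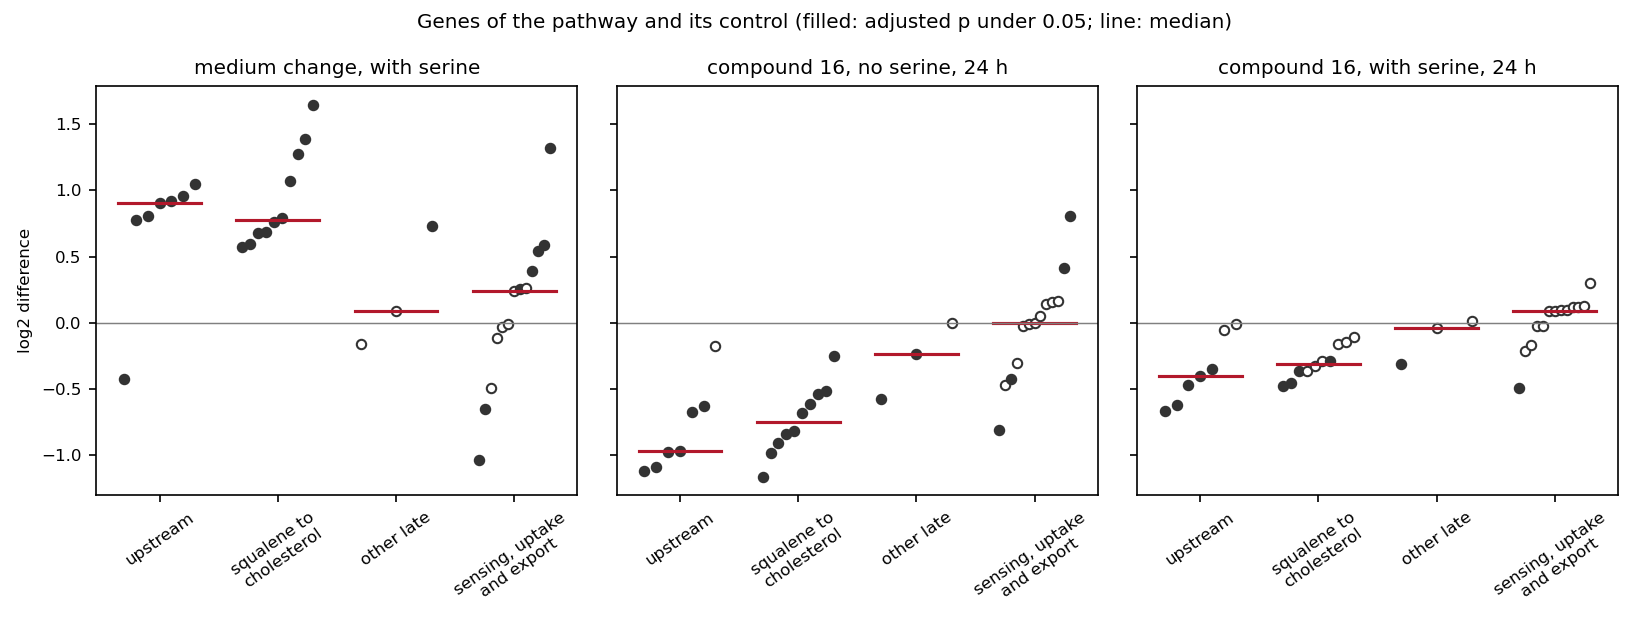
Log2 difference (vertical axis) of the upstream enzymes, the 10 enzymes of the chain, the other late genes and the sensing, uptake and export genes in 3 comparisons. Each point is a gene, filled where the adjusted p was under 0.05, and red lines are medians: -0.97 upstream and -0.75 in the chain under compound 16 at 24 h without serine.

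By their pattern over the 17 groups, the genes most like the mean of the 10 enzymes among 3369 with a SD of group means of at least 0.2 were ERG28 (r = 0.959), CYP26B1 (0.947), MMAB (0.928), KRT4 (0.925) and FDPS (0.913), followed by KRT19, ALDOC, ACAT2, MVK and ACSS2 between 0.909 and 0.891. The last of the 3369 was MYLIP (r = -0.88), an E3 ubiquitin ligase.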

How the data were processed

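The deposited table holds log2 signals of 49386 probe sets on 50 Affymetrix HG-U219 arrays, which the authors made with RMA per the submitters' processing notes. Those notes name RMA and limma without versions or settings. Trizol extraction of total RNA and biotin labelling are per the labels' protocols. RMA normalizes between arrays, which removes a shift shared by all genes, and it compresses changes of dim probe sets. The number of arrays limits the precision.

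By the platform annotation 45253 probe sets name 1 gene, 1327 several, 2713 none and 93 are controls. Only the first were used, with 0 symbols needing an update through RefSeq (GRCh38.p14). Of 18239 genes 11822 have several probe sets, and the one with the highest mean stood for the gene. The 10 enzymes have 27 probe sets. Values were used as deposited. All 50 arrays were fitted together as 17 group means in R 4.3.3 with limma 3.58.1 (33 residual and 3.7 prior degrees of freedom), which gave 30 comparisons, each with Benjamini-Hochberg adjustment over all genes and calls at an adjusted p under 0.05. The median SE of a comparison of 3 with 3 arrays was 0.122. Named genes are all 10 enzymes, the called genes of the pathway lists, and the 10 genes of most similar pattern with the least similar one. The enzymes, lists and comparisons were chosen with earlier results of these data known. The fit was tested on simulated data. Alternatives were another normalization, centring, a filter on the dimmest 40% of genes, probe set means, another prior, array weights, fits of the compared arrays alone and leaving out each array. Promoters and their coordinates are RefSeq's.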

Additional observations from a re-analysis of the deposited data

Results flagged for a closer look

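Among the enzyme values that are differences between effects, 12 passed limma's test with Benjamini-Hochberg adjustment, and all 12 were negative. Of all genes, 0.274% passed as lower between media at 6 h and 0.899% at 24 h. Between times 1.16% passed as lower without serine and 0.126% with it. Between media, the effect of compound 16 without serine minus that with serine was -0.54 for SQLE and -0.47 for MSMO1 at 6 h. At 24 h it was -0.53 for SQLE, -0.67 for LSS, -0.54 for EBP and -0.83 for DHCR7. Between times, the effect at 24 h minus that at 6 h was -0.49 for SQLE, -0.75 for LSS, -0.79 for EBP and -1.01 for DHCR7 without serine, and -0.50 for SQLE and -0.37 for EBP with serine. SQLE is the gene that appears in each of these 4 tests. The tests share arrays with one another, and the tests between times were chosen after seeing the data.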

How the results depend on the processing

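No paired analysis was possible because the numbers in the titles run through the series and no groups share them. Of the enzymes' single values, 4064 recomputed ones kept their side of the threshold, 126 lost the call, 40 gained it and 0 called ones changed sign. Of the 4064, 138 values that passed in neither setting changed sign, 27 of them with the mean of all probe sets. Of the recomputed counts of called enzymes, 39 moved by over 1.5 times. The larger part of these moved when 1 array was left out, and others when limma was fitted on the compared arrays alone. On the compared arrays alone the count under compound 16 was 2 in place of 4 at 6 h without serine. At 24 h with serine it was 0 in place of 4. For the difference between media it was 0 in place of 2 at 6 h and 1 in place of 4 at 24 h, and with serine for the later effect 0 in place of 2. For lack of serine in DMSO it was 0 in place of 2 at 0 h and 0 in place of 1 at 1.5 and 6 h, and under compound 16 at 24 h it was 1 in place of 6. For 24 against 6 h in DMSO it was 1 without serine and 0 with it, in place of 3 each. Fewer arrays leave fewer degrees of freedom in those fits. Centring gave 1 for the difference between media at 6 h, probe set means gave 2 for lack of serine in DMSO at 1.5 and 6 h, and for the later effect with serine the filter on dim genes gave 4 and quantile normalization 1.

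Leaving out 1 array gave counts of 2 to 4 for compound 16 at 6 h without serine, 9 to 10 at 24 h without serine and 3 to 4 at 24 h with serine. The difference between media ranged from 1 to 2 at 6 h and from 4 to 5 at 24 h, lack of serine in DMSO at 0 h from 1 to 2, the later effect with serine from 1 to 3, and 24 against 6 h in DMSO without serine from 1 to 3. Centring and quantile normalization moved the median of all genes by under 0.1 log2 units in each comparison.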
